A study of Mus musculus with 4 samples.

Results

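Genes of the p53 pathway and the DNA damage response were followed in single vascular smooth muscle cells (VSMCs) from mouse arteries. The 10 genes are Trp53, Mdm2, Ccng1, Phlda3, Zmat3, Bax, Gdf15, Eda2r, Trp53inp1 and Plk2. They were taken by name from a list of well-known p53 genes, chosen with earlier results of these data known. They are 10 of 34469 genes listed over the series. All 10 were listed in each of the 4 libraries. Plaque cells came from atherosclerotic arteries of Myh11-CreERt2/Confetti/ApoE-/- mice (ApoE-/-) and of Myh11-CreERt2/Confetti/Sm22a-Trf2T188A/ApoE-/- mice (Trf2T188A/ApoE-/-), both given 10 tamoxifen injections at 6 weeks of age and a high fat diet for 14 weeks. Ligated cells came from the carotid arteries of male wild type control mice and male SM22a-TRF2T188A mice (Trf2T188A), aged 4 to 5 months, 28 days after ligation. TRF2 is a protein that protects chromosome ends, and the Trf2T188A mutant was driven by a minimal Sm22a promoter, which is active in arterial smooth muscle. The ligated samples also held endothelial and immune cells. Myh11-CreERt2 marks cells of male mice only, both plaque groups lacked ApoE, and the number of mice behind a library was not given. Each genotype had 1 library in each experiment, so no difference between genotypes has a replicate, no p-value is given, and the 95% intervals below cover counting error only.

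The protein p53 is a transcription factor that is normally kept low because MDM2 marks it for destruction. Damaged DNA, including unprotected telomeres, activates kinases that free p53 from MDM2, and p53 then switches on genes that arrest the cell cycle, repair DNA or start cell death. Because p53 is controlled mainly as a protein, its activity is usually read from its target genes and not from Trp53 RNA.

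Each cell was sequenced with unique molecular identifiers (UMIs), which count RNA molecules. The libraries held 1502 ApoE-/- cells, 929 Trf2T188A/ApoE-/- cells, 4967 control cells and 5392 Trf2T188A cells, with medians of 22766, 24377, 8631 and 11153 UMIs per cell. The 2 plaque libraries shared no cell barcode and the ligation libraries shared 10. Terf2, which encodes mouse TRF2, was at 0.183 UMIs per 10000 in both plaque libraries, and at 0.177 in control and 0.167 in Trf2T188A ligated smooth muscle cells. The transgene itself was counted in 0 of 1502 ApoE-/- cells and in 9 of 929 Trf2T188A/ApoE-/- cells. Taken as 3 counts, the 0 allows a UMI in up to 0.20% of cells, which limits cells with a UMI and not cells that carry the transgene. The transgene was thus counted in only that one of the plaque libraries that is labelled as carrying it, though in few cells, and it was not analysed here in the ligated arteries.

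Promoter sequence from the RefSeq tables (GRCm38.p6) is shown for the 4 genes whose window of 250 bases before the start held the p53 half-site, the 10-base motif that p53 binds in pairs, searched on both strands. The half-site is in capitals, each sequence is read 5′ to 3′ on the strand of its gene, and the match lies 75, 186, 185 and 201 bases before the start in Trp53, Mdm2, Ccng1 and Bax. A window was listed for 8 of the 10 genes and missing for Zmat3 and Trp53inp1, and no half-site was found in the windows of Phlda3, Gdf15, Eda2r and Plk2. Of 32851 promoter windows of this length, 7.13% held a half-site.
Trp53, chr11:69580109-69580358, plus strand: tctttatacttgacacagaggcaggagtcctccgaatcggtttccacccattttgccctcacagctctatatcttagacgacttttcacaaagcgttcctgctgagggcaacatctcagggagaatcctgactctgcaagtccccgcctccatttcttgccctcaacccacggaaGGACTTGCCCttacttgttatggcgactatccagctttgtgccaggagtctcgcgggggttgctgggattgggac
Mdm2, chr10:117710759-117711008, minus strand: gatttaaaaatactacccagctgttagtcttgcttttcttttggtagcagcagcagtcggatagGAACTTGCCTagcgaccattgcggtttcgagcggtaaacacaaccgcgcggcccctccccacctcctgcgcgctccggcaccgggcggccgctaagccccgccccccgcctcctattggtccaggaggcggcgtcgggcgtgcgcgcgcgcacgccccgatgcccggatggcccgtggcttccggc
Ccng1, chr11:40755287-40755536, minus strand: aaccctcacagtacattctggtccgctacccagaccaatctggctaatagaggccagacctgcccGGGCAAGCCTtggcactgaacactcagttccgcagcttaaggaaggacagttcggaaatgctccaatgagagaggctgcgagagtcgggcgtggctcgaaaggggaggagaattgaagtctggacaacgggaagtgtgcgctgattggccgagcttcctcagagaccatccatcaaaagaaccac
Bax, chr7:45466899-45467148, minus strand: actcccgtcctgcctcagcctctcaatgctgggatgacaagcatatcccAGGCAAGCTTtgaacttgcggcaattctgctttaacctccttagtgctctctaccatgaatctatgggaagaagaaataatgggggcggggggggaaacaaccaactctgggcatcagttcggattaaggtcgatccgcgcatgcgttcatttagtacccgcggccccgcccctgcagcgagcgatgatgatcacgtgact

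Cells were clustered without the 10 genes among the variable genes, and clusters were named from marker genes. In plaques the main classes were contractile-like cells (726 ApoE-/- and 328 Trf2T188A/ApoE-/- cells), fibromyocyte-like cells (156 and 126), chondrocyte-like cells (81 and 64), complement-rich cells (111 and 81) and Itih4 Wnt16-rich cells (227 and 169). After ligation they were contractile-like cells (1563 control and 2262 Trf2T188A cells), remodelling cells (2045 and 1922), de-differentiated cells (1166 and 1031), interferon-responding cells (112 and 54), endothelial-like cells (62 and 65) and immune-like cells (19 and 58). A level is the sum of the UMIs of a gene over the cells of a class, per 10000 UMIs of those cells. A gene was counted as higher or lower past a log2 ratio of 0.25. At least 10% of the cells of either group had to hold a UMI of it, unless another rule is stated.

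Fibromyocyte-like plaque cells, the de-differentiated cells that make matrix, had higher levels of 9 of the 10 genes than contractile-like cells and a lower level of 1. Of all 11280 genes compared, 34.5% were higher and 30.9% lower. The median log2 ratio was 0.93 over the 10 genes and 0.02 over all genes. Since the 10 genes were chosen with earlier results of these data known, these counts are a description. Eda2r, with a UMI in 4.13% of ApoE-/- and 4.27% of Trf2T188A/ApoE-/- contractile-like cells, passed the limit on detection only through the fibromyocyte-like cells and could only be counted as higher. Phlda3 and Plk2 also had log2 ratios over 2, and Trp53inp1 was the gene that was lower. Libraries are given apart first, and the ratio is over both together.

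Among the inhibitors of survival signals and the effectors of cell death, Phlda3 (chr1:135766119-135769136), whose product blocks the kinase AKT, was at 0.505 UMIs per 10000 in contractile-like and 2.57 in fibromyocyte-like ApoE-/- cells. In Trf2T188A/ApoE-/- cells the Phlda3 levels were 0.664 and 2.18, and the log2 ratio over both libraries was 2.12. Bax (chr7:45461697-45466898), which opens the outer mitochondrial membrane in apoptosis, went between the same classes from 0.773 to 1.56 in ApoE-/- and from 0.851 to 1.35 in Trf2T188A/ApoE-/- cells, a log2 ratio of 0.89. Eda2r (chrX:97333840-97377216), a receptor for ectodysplasin A2, went from 0.0257 to 0.227 and from 0.0384 to 0.119, a log2 ratio of 2.65. In each of these genes both fibromyocyte-like values lay above both contractile-like values.

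Of the genes that feed back on p53 or act in the cell cycle, Mdm2 (chr10:117688875-117710758) was at 0.375 in contractile-like cells of both libraries and at 0.644 and 0.604 in fibromyocyte-like cells of ApoE-/- and Trf2T188A/ApoE-/- plaques, a log2 ratio of 0.75. Ccng1 (chr11:40748552-40755311), which encodes cyclin G1, went from 0.384 to 0.589 and from 0.466 to 0.525, a log2 ratio of 0.46. Zmat3 (chr3:32334792-32366014), an RNA-binding protein that regulates splicing, went from 0.125 to 0.248 and from 0.119 to 0.230, a log2 ratio of 0.97. Plk2 (chr13:110395046-110400844), a polo-like kinase, went from 0.0939 to 0.639 and from 0.0358 to 0.310, a log2 ratio of 2.77. Plk2 was concentrated in few cells, and the 5 cells with most Plk2 held 30.8% of its UMIs in the ApoE-/- and 24.5% in the Trf2T188A/ApoE-/- library.

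Gdf15 (chr8:70629393-70632456), a secreted stress cytokine, was at 0.766 in contractile-like and 1.83 in fibromyocyte-like ApoE-/- cells, and at 0.604 and 1.001 in Trf2T188A/ApoE-/- cells, a log2 ratio of 1.08. Trp53 itself (chr11:69580359-69591873) went from 0.341 to 0.555 and from 0.433 to 0.556, a log2 ratio of 0.59. Trp53inp1 (chr4:11156431-11174379), a p53-induced protein of autophagy and cell death, went the other way, from 0.451 to 0.230 and from 0.306 to 0.180, a log2 ratio of −0.94. In chondrocyte-like cells Trp53inp1 was at 0.236 in ApoE-/- and 0.101 in Trf2T188A/ApoE-/- plaques.

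The same pattern was not shared by all p53 genes. Of 26 other p53 targets compared, 13 were higher and 10 lower in fibromyocyte-like than contractile-like cells, and their median was 0.28 on the log2 scale. Cdkn1a, which encodes the cell cycle inhibitor p21, was higher by a log2 ratio of 1.62. Of 18 regulators of p53 and damage kinases, 3 were higher and 7 lower, with a median of −0.13. With the authors' formula, which adds 1 to each mean of cells, 4 of the 10 genes were past 0.25 in place of 9, and Trp53inp1 was no longer past it. The share of all genes past 0.25 was not computed with that formula. Most of the 10 genes have means under 1, so adding 1 shrinks their ratios. The summed level of 16 immediate-early genes, which rise when tissue is digested, was lower in fibromyocyte-like cells, at 67.2 against 103.9 in ApoE-/- and 65.0 against 98.0 in Trf2T188A/ApoE-/- cells. The sum of 12 immune markers was higher there, at 1.14 against 0.128 and at 0.625 against 0.258. Mitochondrially encoded RNA was at 188.0 against 261.1 in ApoE-/- and 192.2 against 181.4 in Trf2T188A/ApoE-/- cells. The part of these lists in the ratios was not tested.

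**Figure D1:**
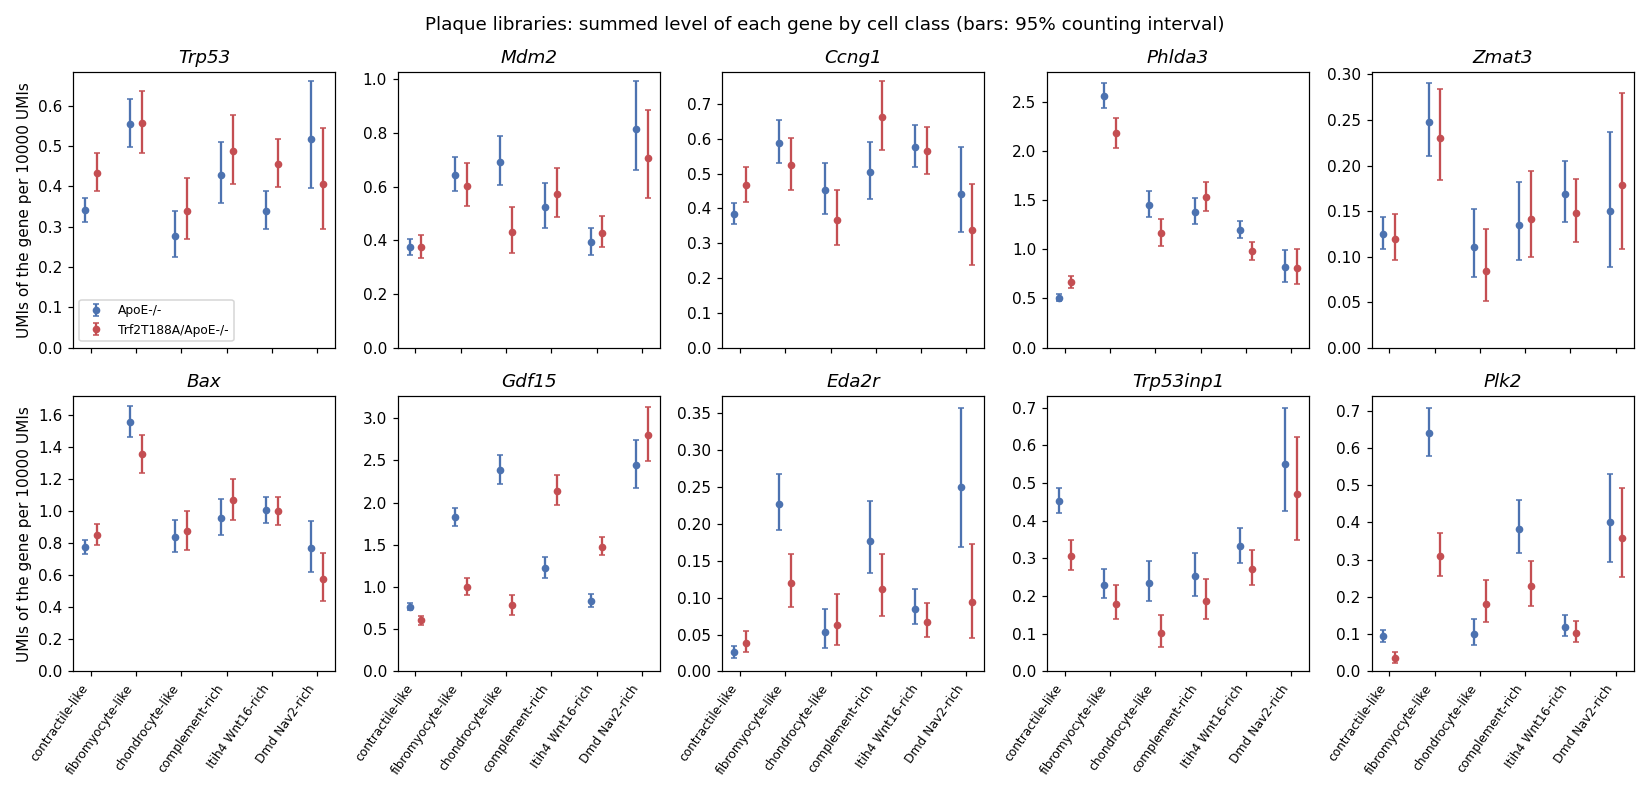
Level of each of the 10 genes by plaque class, in UMIs per 10000 on the vertical axis, for ApoE-/- (blue) and Trf2T188A/ApoE-/- cells (red). Bars are 95% counting intervals. Phlda3 is highest in fibromyocyte-like cells of both libraries, at 2.57 and 2.18, and Trp53inp1 is lower there than in contractile-like cells.

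The other plaque classes differed from contractile-like cells in different members. Complement-rich cells had 8 of the 10 genes higher and 1 lower, beside 32.4% and 31.7% of 11197 genes, with Plk2 at a log2 ratio of 2.05 and Phlda3 at 1.39. Eda2r, at 2.30, again passed the limit on detection only through the class where it was high. In Itih4 Wnt16-rich cells 6 of 9 genes were higher and 1 lower, beside 17.1% and 17.2% of 10581 genes, and Phlda3 had a log2 ratio of 0.98. Chondrocyte-like cells had 5 higher and 3 lower, beside 26.5% and 52.9% of 11344 genes. There Gdf15 and Phlda3 each had a log2 ratio of 1.27, while Trp53 was at −0.29, Zmat3 at −0.31 and Trp53inp1 at −1.17, and Cdkn1a was at 3.04. Dmd Nav2-rich cells (84 ApoE-/- and 99 Trf2T188A/ApoE-/- cells), a shallow class with a median of 8650 UMIs, had 7 of 9 genes higher and 0 lower, beside 40% and 37.7% of 10159 genes. Adamtsl1 Mdga2-rich cells had 5 of 9 genes higher and 1 lower, beside 39.8% and 20.3% of 10878 genes, Pln Notch3-rich cells 3 and 0 of 9, beside 27.4% and 24.1% of 10228 genes, and the 22 fibroblast-like cells 4 and 4 of 10, beside 47% and 31.6% of 10633 genes. In Dmd Nav2-rich cells Plk2 had a log2 ratio of 2.34 and Gdf15 of 1.87, and all 16 immediate-early genes were higher too, with a median of 0.98. The part of the immediate-early genes in that result was not tested.

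After ligation de-differentiated cells had 2 of 9 genes higher and 1 lower than contractile-like cells, beside 20.7% and 30% of 8334 genes. Plk2 was at 0.495 in contractile-like and 0.845 in de-differentiated control cells, and at 0.432 and 0.927 in Trf2T188A cells, a log2 ratio of 0.97 over both. Gdf15 had a log2 ratio of 0.31 and Trp53inp1 of −0.39, and Cdkn1a was at 0.72. Phlda3, the gene with the log2 ratio of 2.12 in plaque fibromyocyte-like cells, had 0.16 here, with levels of 0.967 and 1.05 in control and 0.903 and 1.02 in Trf2T188A cells. Remodelling cells had 2 genes higher and 3 lower, beside 9.87% and 21.3% of 8178 genes, with Plk2 at 0.63 and Gdf15 at 0.32 above contractile-like cells, and Mdm2 at −0.28, Ccng1 at −0.30 and Trp53inp1 at −0.43.

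Cells of other types in the ligated arteries carried some of the highest levels. Endothelial-like cells had 5 of 9 genes higher and 3 lower than contractile-like cells, beside 41.7% and 34.2% of 9639 genes. Plk2 was at 5.89 in control and 4.97 in Trf2T188A endothelial-like cells, a log2 ratio of 3.56, and Trp53 was at 1.28 and 1.43, a log2 ratio of 1.44, while Ccng1 was lower by a log2 ratio of −1.29. Immune-like cells had 5 genes higher and 3 lower, beside 36% and 46.7% of 9085 genes. Mdm2 was at 2.24 in 19 control and 3.59 in 58 Trf2T188A immune-like cells, and Gdf15 at 3.26 and 7.04. Phlda3 was at 0.0639 and 0.317 there, a log2 ratio of −1.82 over both libraries.

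**Figure D2:**
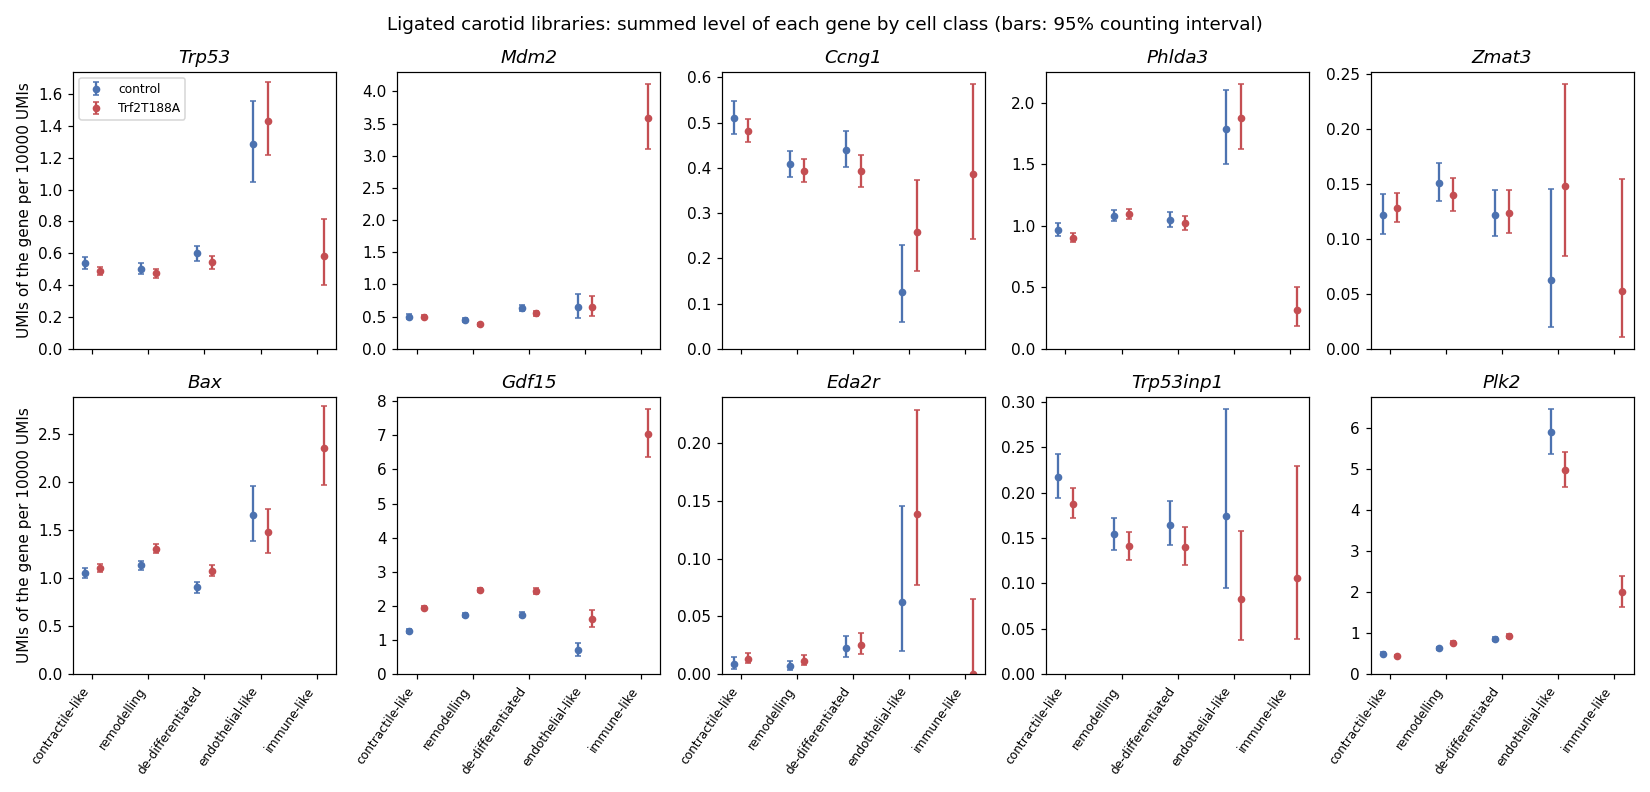
Level of each of the 10 genes by class after ligation, in UMIs per 10000 on the vertical axis, for control (blue) and Trf2T188A cells (red), with 95% counting intervals. The 19 control immune-like cells are not drawn, since a group needed at least 20 cells. Gdf15 is higher in Trf2T188A cells of every class drawn for both genotypes, and Plk2 is highest in endothelial-like cells, at 5.89 and 4.97.

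The comparison of genotypes asks whether mutant TRF2 in smooth muscle moves the p53 genes. Over all plaque cells, 0 of 9 genes compared were higher in Trf2T188A/ApoE-/- than in ApoE-/- cells and 2 were lower, beside 4.24% higher and 5.51% lower of 10526 genes. With the authors' formula, which adds 1 to each mean of cells, 1 was higher (Gdf15) and 0 were lower, and the share of all genes was not computed with it. The 2 genes lower by summed UMIs are both p53 targets. Trp53inp1 was at 0.365 in ApoE-/- and 0.253 in Trf2T188A/ApoE-/- cells, and its log2 ratio was −0.53 (−0.67 to −0.39, 95% interval), and Plk2 at 0.220 and 0.146, a log2 ratio of −0.60 (−0.78 to −0.42). Trp53 was at 0.387 and 0.459, a log2 ratio of 0.25 that lay just under the limit (0.13 to 0.36). For Mdm2 the levels were 0.477 and 0.470, for Ccng1 0.465 and 0.499, and for Phlda3 1.144 and 1.137, with log2 ratios between −0.02 and 0.10. The levels of Zmat3 were 0.153 and 0.144 and those of Bax 0.963 and 0.980. Eda2r, with a UMI in under 10% of the cells of either library, was at 0.0932 and 0.0690 and was not counted.

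Gdf15 depended on how cells were weighted. Its summed level was 1.215 in ApoE-/- and 1.137 in Trf2T188A/ApoE-/- plaques, a log2 ratio of −0.10 (−0.17 to −0.03). As a mean over cells, in which a shallow cell counts as much as a deep one, the Gdf15 level was 1.02 in ApoE-/- and 1.42 in Trf2T188A/ApoE-/- plaques, and the log2 ratio was 0.26 with the authors' formula, which adds 1, and 0.33 with every cell thinned to 8000 UMIs. The authors' limits removed cells under 1500 genes from ApoE-/- but only those under 1000 genes from Trf2T188A/ApoE-/- plaques. The mean over cells thus included shallow cells of a kind that the ApoE-/- library could not hold, and their part was not tested. Thinned cells had at least 8000 UMIs. The direction of Gdf15 in whole plaques is therefore not fixed by these data. Of Gdf15 UMIs, 16.4% lay in 5 ApoE-/- cells, one of which held 276, and 14.5% in 5 Trf2T188A/ApoE-/- cells.

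Other p53 genes showed no joint shift in whole plaques. Of 26 other p53 targets, 2 were higher and 3 lower in Trf2T188A/ApoE-/- cells, and the median over them was −0.04 (log2) beside −0.01 over all genes, and Cdkn1a was at 1.857 and 1.690. Of 18 p53 regulators and damage kinases, 0 were past the limit in either direction. The libraries also differed in RNA unrelated to p53. Summed RNA of mitochondrially encoded genes was at 241 UMIs per 10000 in ApoE-/- and 180 in Trf2T188A/ApoE-/- plaques, the immediate-early genes at 114.6 and 125.9, and immune markers at 0.514 and 0.842, with all 12 of the 12 listed immune markers counted in both. Their part in the ratios was not tested.

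Within plaque classes the genotype ratio of the same gene took different directions. In contractile-like cells 3 of 9 genes were higher and 3 lower in Trf2T188A/ApoE-/- plaques, beside 7.59% and 9.79% of 10141 genes. This class pools 3 clusters, which held 317, 305 and 104 ApoE-/- and 178, 107 and 43 Trf2T188A/ApoE-/- cells. The higher genes were Trp53 (0.341 to 0.433, log2 ratio 0.35), Ccng1 (0.384 to 0.466, 0.28) and Phlda3 (0.505 to 0.664, 0.40), and Cdkn1a had a log2 ratio of 0.58. Trp53inp1 (log2 ratio −0.56) and Plk2 (−1.39) were lower, as was Gdf15 (−0.34), though for Gdf15 the ratio was 0.01 with the authors' formula. In each of the 3 clusters Trp53, Ccng1, Phlda3 and Cdkn1a had the higher level, and Trp53inp1 and Plk2 the lower, in Trf2T188A/ApoE-/- cells. The clusters are parts of the same libraries and are not replicates. Gdf15 went from 0.338 to 0.178 in the first cluster, from 1.36 to 1.39 in the second and from 0.289 to 0.376 in the third. In fibromyocyte-like cells 0 of 10 genes were higher and 4 lower, beside 15.5% and 24% of 11455 genes. Those 4 were Gdf15 (1.83 to 1.001, log2 ratio −0.87), Eda2r (−0.93), Trp53inp1 (−0.36, interval −0.79 to 0.07) and Plk2 (−1.04), and Cdkn1a had a log2 ratio of −0.77. Without the 5 cells of each library with most Plk2, the Plk2 ratio of the fibromyocyte-like cells was −0.34. At a finer clustering the Gdf15 ratio of the fibromyocyte-like cells was 0.11.

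In other plaque classes Gdf15 was higher with the mutant. Complement-rich cells had 2 genes higher and 3 lower, beside 20.6% and 22.8% of 11374 genes, and their Gdf15 was at 1.23 in ApoE-/- and 2.14 in Trf2T188A/ApoE-/- cells, a log2 ratio of 0.81. Itih4 Wnt16-rich cells also had 2 higher and 3 lower, beside 14% and 17.3% of 10858 genes, with Gdf15 at 0.838 and 1.48, a log2 ratio of 0.82, and Trp53 at 0.43. All 16 immediate-early genes were higher with the mutant in the Itih4 Wnt16-rich cells, by 0.55 (log2) at the median, and their summed level was 93.0 and 130.3. Without the 10% of cells with the highest immediate-early level the Gdf15 ratio was 0.51 in Itih4 Wnt16-rich and 1.16 in complement-rich cells. Chondrocyte-like cells had 2 higher and 6 lower, beside 25.9% and 27.2% of 11156 genes, with Gdf15 at 2.39 and 0.782, though at 1 depth the Gdf15 ratio there was −0.05 in place of −1.61. In the small classes 1 gene was higher and 3 lower of 9 in Adamtsl1 Mdga2-rich cells, beside 29.8% and 29.9% of 11452 genes, 2 and 4 of 9 in Pln Notch3-rich cells, beside 33.2% and 31.5% of 9954 genes, and 1 and 4 of 10 in Dmd Nav2-rich cells, beside 25.5% and 31.4% of 9212 genes. Trp53inp1 was lower with the mutant in each of the 8 plaque classes with over 20 cells in both libraries, by log2 ratios from −0.22 in Dmd Nav2-rich to −1.22 in chondrocyte-like cells. The value of −0.22 is within the limit, and the classes are parts of the same libraries and not replicates.

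Among the 9 members compared over the ligated smooth muscle clusters, Gdf15 was the gene past the limit. Over the smooth muscle clusters (4886 control and 5269 Trf2T188A cells), 1 of 9 genes was higher in Trf2T188A cells and 0 were lower, beside 6.06% and 4.72% of 8235 genes. Gdf15 was at 1.574 in control and 2.236 in Trf2T188A cells, a log2 ratio of 0.51 (0.47 to 0.55), and a UMI of Gdf15 was found in 40.3% and 45.7% of cells thinned to 5000 UMIs (52.2% and 62.2% without thinning). The Gdf15 levels were 1.25 and 1.95 in contractile-like, 1.73 and 2.46 in remodelling, 1.74 and 2.44 in de-differentiated, 1.56 and 2.40 in interferon-responding and 0.698 and 1.62 in endothelial-like cells. So all 5 classes had more Gdf15 in the Trf2T188A library, with a log2 ratio of 1.21 in endothelial-like cells. The 5 cells with most Gdf15 held 2.35% of its UMIs in either library.

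The other members that were compared stayed within 0.25 in the ligated smooth muscle clusters. Bax was at 1.049 in control and 1.174 in Trf2T188A cells, a log2 ratio of 0.16. Trp53 was at 0.538 and 0.495, a log2 ratio of −0.12 (−0.20 to −0.04), Mdm2 at 0.507 and 0.468, Ccng1 at 0.448 and 0.431, and Phlda3 at 1.036 and 0.999. For Zmat3 the levels were 0.133 and 0.132, for Trp53inp1 0.179 and 0.163, and for Plk2 0.636 and 0.653. Eda2r was scarce, with 51 UMIs in control and 97 in Trf2T188A cells, and was not counted, though it was higher past the limit without the filter on detection. Of 21 other p53 targets 5 were higher and 0 lower, beside 6.06% and 4.72% of 8235 genes. Their log2 ratios ran from −0.22 to 0.42, with a median of 0.00. Cdkn1a was at 3.40 and 3.11, and the summed immediate-early level was 180 and 165. The sum of 12 immune markers, all counted in both libraries, was at 0.372 in control and 0.163 in Trf2T188A smooth muscle clusters, and that of 10 endothelial markers at 0.726 and 0.867. The part of these cells in the Gdf15 ratio was not tested. By class, Gdf15 alone was past the limit in contractile-like cells, with 7.32% of 8315 genes higher and 5.87% lower. In remodelling cells Gdf15 and Plk2 (log2 ratio 0.28) were higher and 0 genes lower, beside 9.42% and 11.6% of 8043 genes, and in de-differentiated cells Gdf15 and Bax (0.25) were higher and 0 lower, beside 10.8% and 9.64% of 8251 genes. Interferon-responding cells had 4 of 9 higher and 1 lower, beside 28.7% and 28.1% of 8591 genes, and endothelial-like cells 4 of 10 higher and 1 lower, beside 25.4% and 32.4% of 9478 genes.

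**Figure D3:**
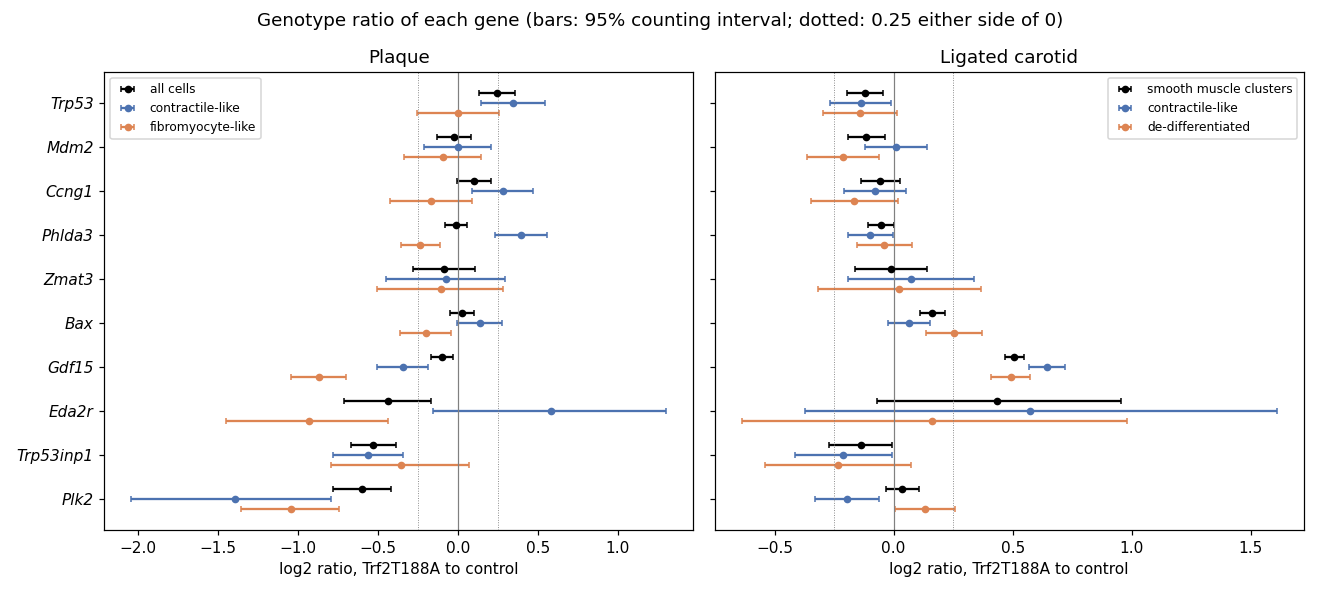
Log2 ratio of Trf2T188A to control level of the 10 genes in plaques and after ligation, over all plaque cells or the ligated smooth muscle clusters (black), in contractile-like cells (blue) and in fibromyocyte-like or de-differentiated cells (orange). Bars are 95% counting intervals and dotted lines mark −0.25 and 0.25. In ligated arteries Gdf15 is past the limit in all 3 groups of cells, and in plaques Trp53inp1 and Plk2 are below it in all 3.

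Cdkn2a encodes p16, a marker of senescent cells, and was counted as a gene, without telling its transcripts apart. A UMI of it was found in 49 of 1502 ApoE-/- cells (3.26%, exact interval 2.42% to 4.29%), 56 of 929 Trf2T188A/ApoE-/- cells (6.03%), 279 of 4886 control cells (5.71%) and 389 of 5269 Trf2T188A ligated smooth muscle cells (7.38%). The share was 0.275% and 0.610% in contractile-like plaque cells, against 19.9% and 26.2% in fibromyocyte-like cells. After ligation it was 0.384% and 0.575% in contractile-like and 8.95% and 13.1% in remodelling cells. Cells with a Cdkn2a UMI were deeper, with medians of 42092 UMIs against 22806 in plaques and 12912 against 9793 after ligation. Their levels were set against negative cells of the same class and library, which does not make depth equal.

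In plaques 7 of the 10 genes were higher in Cdkn2a-positive cells and 0 lower, beside 23% and 21.3% of 11790 genes. Eda2r, with a UMI in 27.6% of positive and 8.51% of negative cells, was counted only through the positive cells. By library they were 8 and 0 in ApoE-/- cells, beside 29.7% and 28.4% of 12347 genes, and 5 and 1 in Trf2T188A/ApoE-/- cells, beside 25.6% and 21.9% of 11647 genes, and the difference between libraries was not tested. Plk2 had a log2 ratio of 2.11, at 0.825 against 0.191, and it was at 1.37 against 0.163 (log2 ratio 3.08) in the ApoE-/- library, while in Trf2T188A/ApoE-/- cells it was at 0.276 against 0.220 (0.33, interval −0.04 to 0.68). Without the 5 cells of each library with most Plk2 the ratio over both was 1.13. Gdf15 and Eda2r were also split between libraries. Gdf15 had a log2 ratio of 0.68 in ApoE-/- and −0.27 in Trf2T188A/ApoE-/- cells, and Eda2r of 1.19 and −0.23. Against the 10 negative cells of the same class nearest in depth, 6 genes were higher over both libraries in place of 7. There the log2 ratios in ApoE-/- and Trf2T188A/ApoE-/- cells were 2.80 and 0.60 for Plk2, 0.78 and −0.31 for Gdf15, and 1.52 and −0.36 for Eda2r. Those of Mdm2 were 0.71 and 0.52, and those of Phlda3 0.03 and 0.27.

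Mdm2, Bax and Zmat3 were higher in Cdkn2a-positive cells of both plaque libraries. Mdm2 was at 0.908 against 0.546 in ApoE-/- and 0.664 against 0.487 in Trf2T188A/ApoE-/- cells, log2 ratios of 0.73 and 0.45. Bax had 1.58 against 1.27 and 1.44 against 1.03, log2 ratios of 0.32 and 0.49. Zmat3 had log2 ratios of 0.68 and 0.29, the second with an interval of −0.14 to 0.69. Trp53 had 0.51 and 0.07, or 0.30 over both, and −0.22 over both with cells thinned to 1 depth. Phlda3 was at 2.22 in both kinds of ApoE-/- cell and at 2.07 against 1.56 in Trf2T188A/ApoE-/- cells. Ccng1 and Trp53inp1 stayed within the limit over both libraries, at 0.06 and 0.12.

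After ligation 4 of 9 genes were higher in Cdkn2a-positive cells and 0 lower, beside 8.43% and 9.23% of 8617 genes, and the 4 were Phlda3, Bax, Ccng1 and Zmat3 in either library. Phlda3 was at 1.72 against 0.989 in control and 1.65 against 0.947 in Trf2T188A cells, a log2 ratio of 0.80 in both. Bax was at 1.45 against 1.01 and at 1.60 against 1.16, log2 ratios of 0.53 and 0.47. Ccng1 had 0.40 and 0.45, and Zmat3 0.76 and 0.36. Control cells had 4 genes higher and 0 lower, beside 10.7% and 14.3% of 8242 genes, and Trf2T188A cells 5 and 0, beside 12.1% and 11.1% of 8938 genes. The added gene was Plk2, at 0.37 in Trf2T188A and −0.16 in control cells. Trp53 was at −0.14 in both. Against the 10 negative cells of the same class nearest in depth, Phlda3 was at 0.57, Bax at 0.36, Zmat3 at 0.37 and Ccng1 at 0.31 over both libraries, and Zmat3 at 0.22 in the Trf2T188A library, within the limit.

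Bax and Zmat3 were past 0.25 in Cdkn2a-positive cells of all 4 libraries against negative cells of their class. Against the cells nearest in depth Bax was past it in all 4, and Zmat3 in 3 and at 0.22 (−0.07 to 0.50) in Trf2T188A ligated cells. Against negative cells of their class Cdkn1a was past it in none, at 0.21, 0.18, 0.22 and 0.08 in ApoE-/-, Trf2T188A/ApoE-/-, control and Trf2T188A cells. Against the cells nearest in depth Cdkn1a was at 0.22, 0.07, 0.21 and −0.11 in the same order, the last with an interval of −0.17 to −0.05. Other p53 targets did not move as a group. Of 26 compared in plaques 6 were higher and 5 lower, and of 24 after ligation 4 were higher and 4 lower. The immediate-early genes moved oppositely in the 2 experiments, with 8 of 16 higher and 0 lower in plaques and 0 higher and 13 lower after ligation. In plaques mitochondrially encoded RNA was at 135.6 UMIs per 10000 in positive and 200.5 in matched cells, the sum of 12 immune markers at 0.375 and 1.07, and that of 10 endothelial markers at 1.02 and 0.636. After ligation the sums were 0.410 and 0.249 for immune and 1.20 and 0.924 for endothelial markers, and 184.6 and 203.5 for mitochondrially encoded RNA. Their part in the ratios was not tested.

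**Figure D4:**
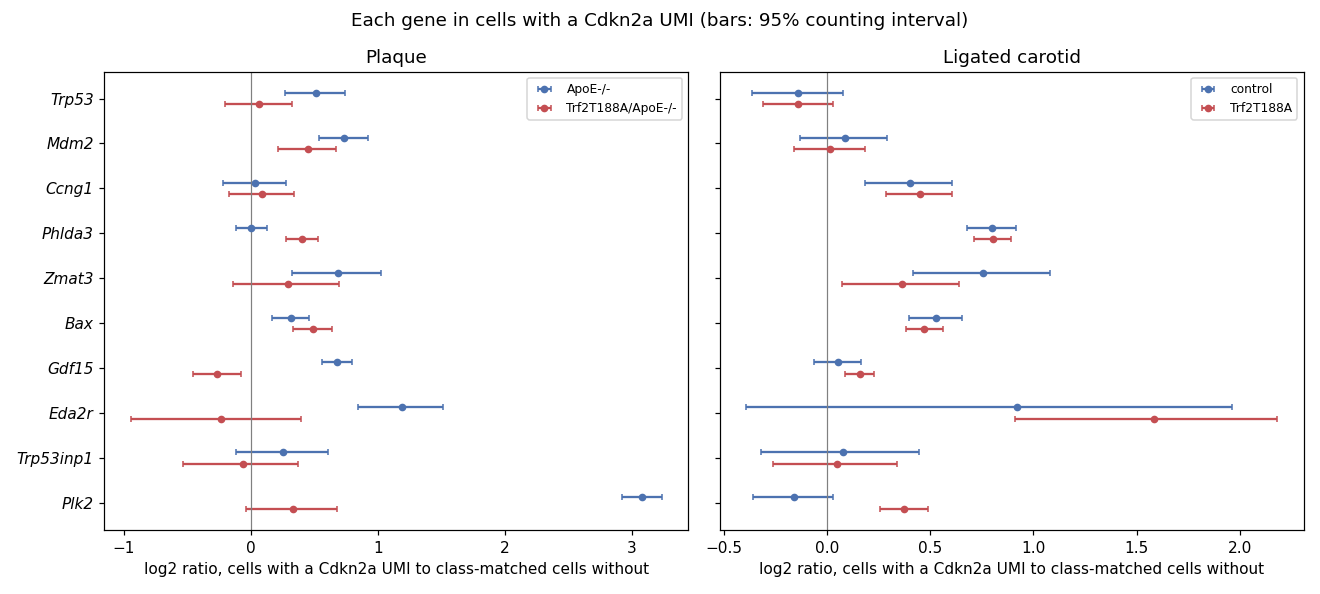
Log2 ratio of the level of each of the 10 genes in Cdkn2a-positive cells to that in negative cells of the same class, for each of the 4 libraries, with 95% counting intervals. Bax and Zmat3 are past 0.25 in all 4, and Plk2 is at 3.08 in the ApoE-/- library and at 0.33 in the Trf2T188A/ApoE-/- library.

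Whether the targets rise together in single cells was described by counting, in each cell, how many of the 9 targets (the 10 genes without Trp53) had at least 2 UMIs and at least 3 times the level of the class and library. This definition was chosen once values had been seen. In ApoE-/- plaques 32 of 1488 cells had 4 or more targets high (2.15%, interval 1.48% to 3.02%), and in Trf2T188A/ApoE-/- plaques 24 of 929 (2.58%, 1.66% to 3.82%). After ligation they were 27 of 4886 control cells (0.553%, 0.364% to 0.803%) and 38 of 5269 Trf2T188A cells (0.721%, 0.511% to 0.989%). A shift shared by all cells of a library also moves the level that its cells are held against. These shares therefore do not compare the level of the targets between genotypes, and their intervals cover counting error only. One ApoE-/- cell had 8 targets high. The share depends on depth, since thinning left 14, 11, 7 and 9 such cells. They were spread over classes, with 10 contractile-like and 5 fibromyocyte-like cells among the 32, and 4, 2, 5 and 10 of them had a Cdkn2a UMI.

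Genes that had no part in choosing these cells can be compared. Here the limit on detection was applied to the chosen cells alone. Genes scarce in the chosen cells were left out, however high in the other cells, and could not be counted as lower. The counts of higher and lower genes are therefore tilted towards higher, and so are the shares of all genes given beside them. Of 26 other p53 targets, 20 were higher and 0 lower in the plaque cells with 4 or more targets high than in other cells of their class and library, beside 32.1% and 15.4% of 11272 genes. After ligation 17 of 24 were higher and 1 lower, beside 42.3% and 12.6% of 8959 genes. Cdkn1a was at 12.1 against 1.81 UMIs per 10000 in plaques, a log2 ratio of 2.73, and at 14.6 against 3.19 after ligation, 2.19. Aen, a nuclease that p53 induces in apoptosis, had 1.92 and 2.39, and Bbc3, which encodes the death protein PUMA, had 1.29 and 1.06. Rps27l had 1.32 and 1.25. The 1 target that was lower was Fas after ligation, at −0.35 and with an interval of −0.73 to 0.01. Cdkn1a lay above its class level in 29 of 32 and 24 of 24 plaque cells, and in 23 of 27 and 36 of 38 ligated cells.

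The summed level of the other p53 targets was 2.37 times that of matched cells in plaques and 2.09 times after ligation, and 1.81 and 1.53 times without Cdkn1a. Against cells of the same depth the ratios were 2.34 and 2.04. The regulators of p53 and damage kinases were at 1.13 and 1.24 times, and Terf2 had log2 ratios of −0.15 and −0.09. Trp53 RNA had log2 ratios of 0.44 and 0.15. Immediate-early genes were at 1.42 times in plaques and 1.001 times after ligation, and mitochondrially encoded RNA at 0.790 and 0.798 times. These cells were chosen for high p53 targets, and the values describe which other genes were high in the same cells.

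**Figure D5:**
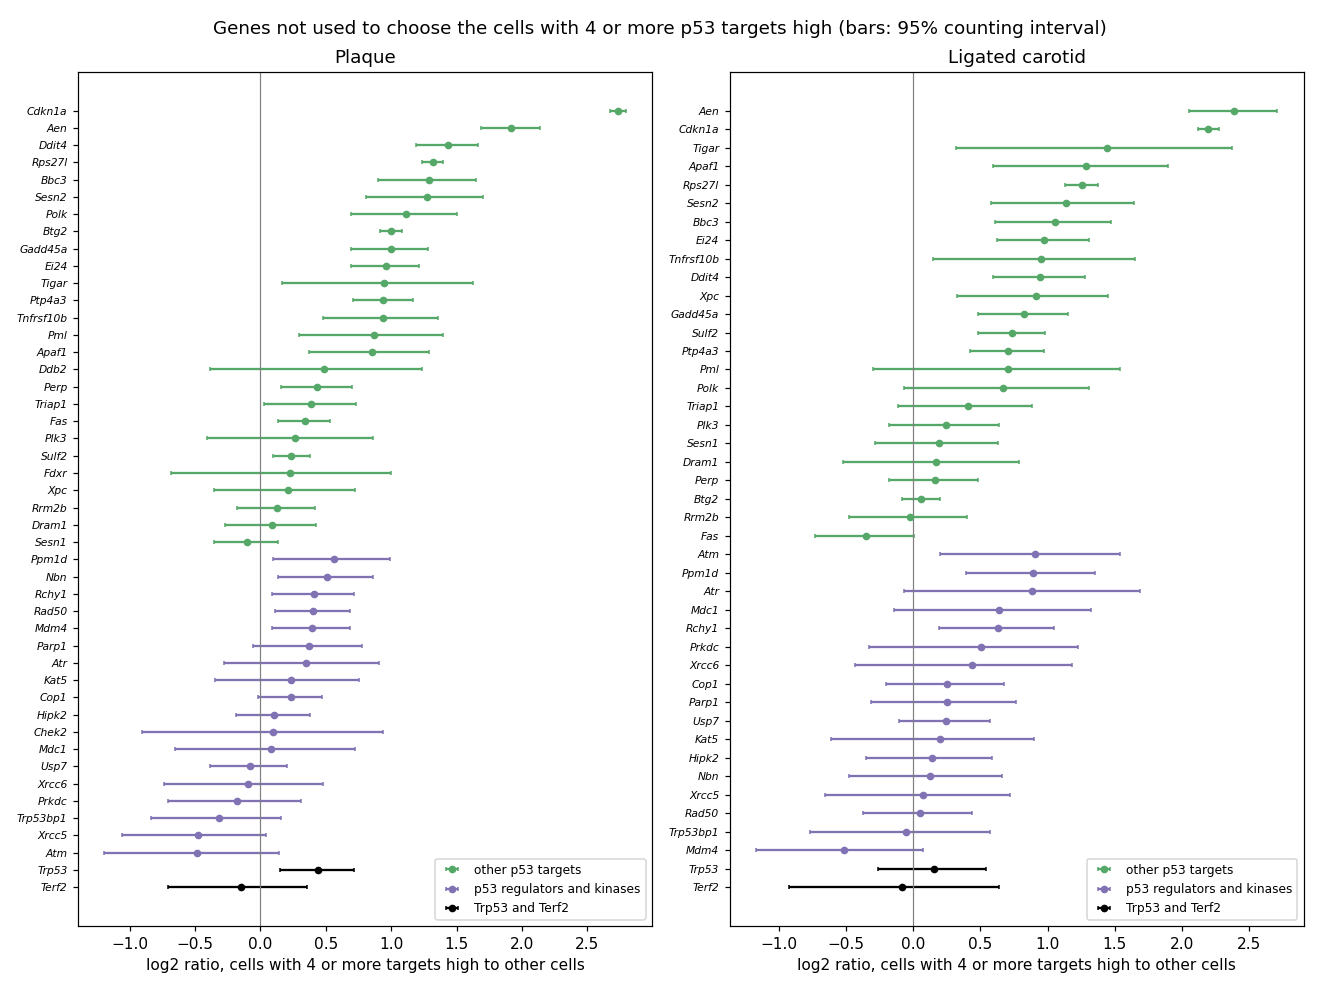
Log2 ratio of genes not used to choose the cells, in cells with 4 or more of 9 p53 targets high against other cells of the same class and library, for plaques and ligated arteries. Other p53 targets are green, regulators of p53 and damage kinases purple, and Trp53 and Terf2 black. Only genes with a UMI in at least 10% of the chosen cells are drawn. Cdkn1a is at 2.73 and 2.19 and Aen at 1.92 and 2.39, while Terf2 is near 0.

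The genes whose levels over classes and libraries were most like those of the 10 genes were found by Pearson's r of log2 levels, over 17 class by library sums of 8638 genes in plaques and 11 sums of 7970 genes after ligation. The points share libraries, so r is a description and has no p-value. In plaques Trp53inp1 was most like mt-Nd2 (r = 0.929), a mitochondrially encoded gene, Phlda3 most like Capg (0.929), Bax most like Canx (0.927) and Zmat3 most like Plec (0.934). Plk2 was most like Tmem120a (0.923), Gdf15 most like Elf4 (0.894), Mdm2 most like Pvt1 (0.901), Trp53 most like Gm12185 (0.909) and Ccng1 most like H2-Ab1 (0.816). After ligation the leading genes were others for each member, such as Uaca for Phlda3 (0.984), Clec14a for Trp53 (0.982) and Ran for Bax (0.966).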

How the data were processed

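Cells of 2 plaque and 2 ligation libraries, 1 per genotype, were analysed. The authors aligned reads to GRCm38 with Cell Ranger 7.0.0 (plaques) or 6.1.2 (ligation), removed plaque cells with under 1500 (ApoE-/-) or 1000 (Trf2T188A/ApoE-/-) genes or over 8% mitochondrial reads, removed ligation cells with under 1200 genes, over 6% mitochondrial reads or over 40% of reads in top genes, and kept Confetti-expressing plaque clusters. The deposited signal was UMIs per 10000 in each cell, and 100% of values were within 0.01 of whole UMIs, which were recovered. Ligation libraries were joined over 29459 genes.

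Cells were clustered with Seurat 5.3.0 in R 4.3.3 (2000 variable genes, 18 components and resolution 0.9 in plaques, 17 and 0.2 after ligation), leaving the 10 genes and other listed genes out of the variable genes, 12 of which were affected. The limits for naming a cluster were set after the data were seen, and 14 plaque cells stayed unnamed. The members and gene lists were chosen with earlier results of these data known. The text names the 10 members, Terf2, Cdkn2a and Cdkn1a, the highest and lowest of the listed p53 targets, and the genes most like each member. Ratios are of summed UMIs, with exact conditional binomial intervals, shares with Clopper-Pearson intervals, and levels with exact Poisson intervals, all at 95%. No cell was removed. Scrublet in scanpy 1.11.5 called at most 0.323% doublets, so its calls were not used. Thinning to 8000 (plaque) or 5000 UMIs left out 92, 122, 325 and 154 cells. Positions are from GENCODE vM21. Python 3.11.15 was used with pandas 2.3.3, scipy 1.17.1, numpy 2.4.6 and matplotlib 3.10.9. The ratio of genotypes and its interval were tested on simulated sums with known ratios. The sums were drawn with counting error only, as the interval assumes, so the test did not cover spread between cells or libraries.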

Additional observations from a re-analysis of the deposited data

Results flagged for a closer look

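The genotype ratio of some genes took opposite directions in 2 settings, with each interval on its own side of 0. None of these differences was tested, since each group held 1 library. Trp53 had a log2 ratio of Trf2T188A to control of 0.25 over all plaque cells and −0.12 in ligated smooth muscle clusters. Gdf15 had −0.10 over all plaque cells and 0.51 in ligated smooth muscle clusters, but the plaque value of Gdf15 was 0.26 with 1 added to each mean of cells and 0.33 at 1 depth, so its direction there is not fixed. Within plaques Gdf15 had 0.81 in complement-rich and 0.82 in Itih4 Wnt16-rich cells, against −0.34 in contractile-like, −0.87 in fibromyocyte-like and −1.61 in chondrocyte-like cells. Phlda3 had 0.40 in contractile-like cells, against −0.32 in chondrocyte-like and −0.29 in Itih4 Wnt16-rich cells. Plk2 had 0.84 in chondrocyte-like cells, against −1.39 in contractile-like, −1.04 in fibromyocyte-like and −0.73 in complement-rich cells. The Plk2 value of the chondrocyte-like cells was −1.47 without the 5 cells of each library with most Plk2.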

How the results depend on the processing

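No paired analysis was possible because each group held 1 library, and no replicate could be left out. Of the alternatives for single genes, 1007 stayed within the counting interval of the reported ratio, 166 moved and 7 changed direction. A change of direction was scored only for ratios past the limit with an interval clear of 0. A change of sign in another ratio, such as Gdf15 over all plaque cells, was counted as moved or as within the interval. The 7 are as follows. The direction changed for Gdf15 in plaque contractile-like cells, from −0.34 to 0.0058 with 1 added to each mean of cells and 0.012 with 0.1 added, for Gdf15 in fibromyocyte-like cells, to 0.11 at 1.5 times the resolution, for Mdm2 in chondrocyte-like cells, to 0.15 at 1 depth, for Plk2 in chondrocyte-like cells, to −0.89 at 1 depth and −1.47 without the 5 cells with most Plk2, and for Trp53 in Cdkn2a-positive plaque cells, to −0.22 at 1 depth. The cause was not tested.

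Of the counts, 71 alternatives stayed within 1.5 times and 27 moved. Over all plaque cells the higher genes were 1 in place of 0 with 1 added, 0.1 added or cells at 1 depth, and that gene was Gdf15. The lower genes were 0 in place of 2 with 1 added and 1 with 0.1 added. With 1 added, fibromyocyte-like cells had 4 genes higher in place of 9 and 0 lower in place of 1, and de-differentiated cells had 1 higher in place of 2 and 0 lower in place of 1, or 2 lower in the Trf2T188A library alone. Cdkn2a-positive cells had 1 lower gene in place of 0 against all negative cells in plaques, and 1 at 1 depth after ligation. In ligated smooth muscle clusters 2 genes were higher in place of 1 without the filter on detection. Cells with 4 or more targets high were 32 in ApoE-/- plaques, and 14 with 5 targets, 11 at 4-fold and 14 at 1 depth. In Trf2T188A/ApoE-/- plaques they were 24, and 15, 14 and 11. In control ligated cells they were 27, and 8, 10 and 7, or 6 with 3 UMIs, and in Trf2T188A cells 38, and 16, 13 and 9, or 20 with 3 UMIs. Adding 1 shrinks ratios of genes with means under 1 by its construction. The share of all genes past the limit was not computed under the alternatives. Leaving out the 5 cells with most UMIs, matching on depth, and the settings of the counts of cells were chosen after seeing the data.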
